A study of Mus musculus with 6 samples.

Results

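The junction genes of the blood-testis barrier were examined in whole testis of neonatal and adult mice. They were 9 genes of the 19053 named genes with an mRNA probe on the array, chosen by name and found through the RefSeq accession of each probe. Cldn11, Cldn3, Cldn5, Ocln and F11r encode membrane proteins of tight junctions, and Tjp1 encodes a tight junction scaffold. Gja1 encodes a gap junction channel protein, and Cdh2 and Ctnnb1 encode an adherens junction receptor and its cytoplasmic partner. Each gene had 1 probe, so 9 of 22464 mRNA probes were read. RNA came from male C57/BL6 mice that were 6 days old (neonatal, 3 arrays) or 8 weeks old (adult, 3 arrays). Every array holds RNA of a group of mice and not of a single animal, and more neonatal than adult mice were used. Each sample was hybridized in 1 colour (Cy3) to an array of its own, and the number of arrays limits the precision of every value.

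The blood-testis barrier lies between neighbouring Sertoli cells, near the base of the seminiferous tubule, and separates meiotic and later germ cells from the blood and lymph. It joins tight junctions, gap junctions, desmosomes and an actin-rich adherens junction known as the basal ectoplasmic specialization. In mice the barrier is assembled after birth as Sertoli cells mature, so the neonatal testis lacks a closed barrier and the adult testis has one.

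Values are normalized log2 signals, in which 0 stands for a signal equal to the 75th percentile of the array's probes. A change is the adult minus the neonatal value. All 9 probes were well above background on all 6 arrays. The scanner software marked 21 of the 54 member spots as outliers (non-uniform, or apart from the population of spots). With those spots left out, 5 genes kept at least 2 complete pairs of replicates and could be tested. Cldn11, Cldn5, Ocln and Cdh2 had fewer, and their tests therefore use all spots, the marked ones included. A probe was called at a limma adjusted p of at most 0.05.

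Most of the junction genes had less signal in adult than in neonatal testis, and Cldn3 had more. Of the 5 genes tested without marked spots, 4 were called lower in adults, where 45.8% of all 15121 mRNA probes tested were called lower. Cldn3 was called higher, where 29.7% of the mRNA probes were. With all spots, 8 of 9 genes were called lower against 49.5% of 19310 mRNA probes, and 1 was called higher against 29.8%. The median change of the 9 genes was -1.42, beside -0.50 for all mRNA probes with the same spots. At a change of at least 5-fold with the adjusted p, F11r alone was called lower without marked spots, as were 13.7% of mRNA probes. With all spots Ocln alone passed that rule, as did 15.4% of mRNA probes. Since the members were picked by name and so many mRNA probes fell, these counts are not read as a property of the barrier genes. In whole tissue, fewer cells of a type and less RNA per cell cannot be told apart.

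**Figure D1:**
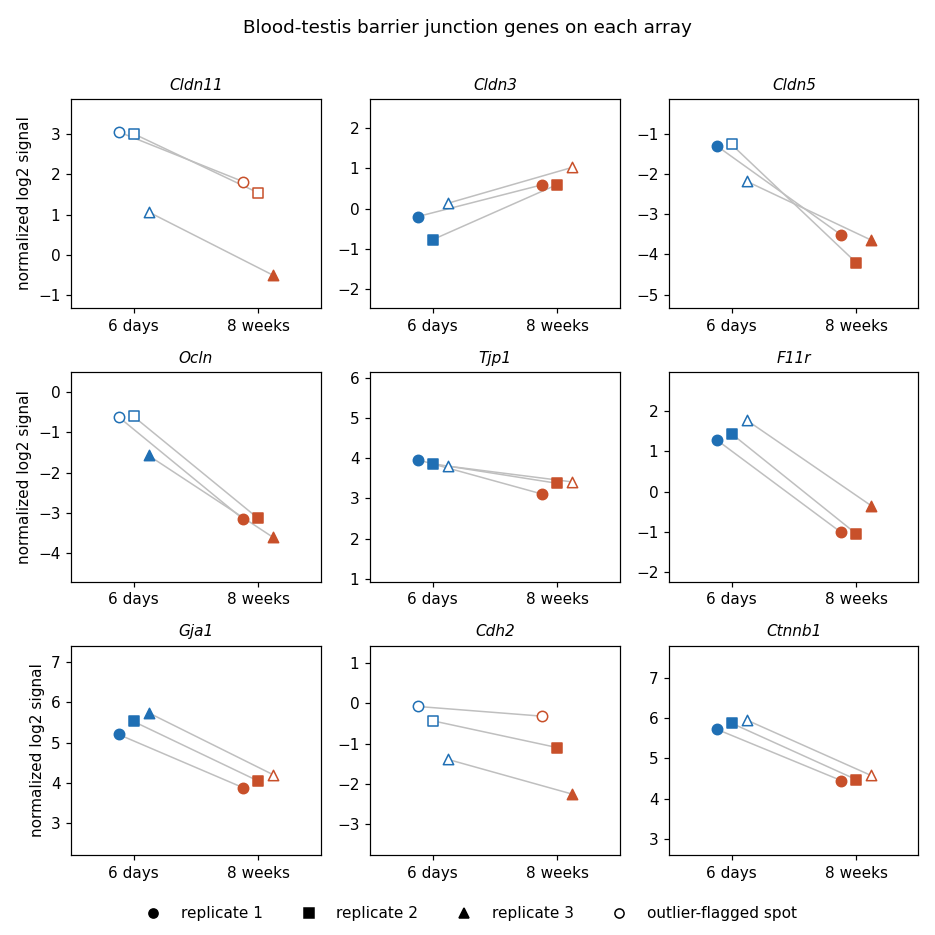
Normalized log2 signal of each junction gene on each array at 6 days and 8 weeks, 1 panel per gene, each with its own position on a vertical axis of the same span. Symbols give the replicate number, lines join arrays of the same number and open symbols are spots that the scanner software marked as outliers. The ages overlap for Cldn11 and Cdh2 and are apart for the other 7 genes, a count that was not set against all mRNA probes.

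Claudins form the paracellular seal of tight junctions. Cldn11 (NM_008770), a claudin of Sertoli cells needed for the barrier, had normalized log2 signals of 3.05, 3.01 and 1.06 in neonatal replicates 1 to 3. In adult replicates 1 to 3 the signals were 1.82, 1.54 and -0.51. Replicate 3 was the low array at both ages, and the ages overlapped, since neonatal replicate 3 lay below adult replicates 1 and 2. Every pair nevertheless differed in the same direction, by -1.24, -1.47 and -1.57. With all spots, 5 of the 6 of them marked, Cldn11 changed by -1.42 ± 0.13 (SE), a 2.68-fold fall with a limma adjusted p of 0.00073 over 3 pairs. The spread between replicates of one age (SD 1.13 in neonates and 1.27 in adults, n = 3) was close to the difference between ages. With no block the same Cldn11 change had a limma adjusted p of 0.16 and the call was lost. With the slide, inferred from scan times, as the block in place of the replicate number the limma adjusted p was 0.00019. The Cldn11 call was also lost when any single array was left out, a fit with no block, with changes from -2.08 to -0.70 and adjusted p from 0.056 to 0.41.

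Cldn3 (NM_009902), a claudin found at newly formed tight junctions in the mouse testis, was the member with more signal in adults. Its signals were -0.20, -0.77 and 0.13 in neonatal replicates 1 to 3. They were 0.59, 0.60 and 1.02 in adult replicates 1 to 3. All adult arrays lay above all neonatal arrays, with a gap of 0.46 between the nearest arrays. Pair differences were 0.79, 1.37 and 0.89. Without the marked spots of replicate 3, Cldn3 rose by 1.08 ± 0.21 (SE), or 2.11-fold with a 95% interval from 1.32 to 3.37, and the limma adjusted p was 0.021 over 2 pairs. With all spots the rise was 1.02 ± 0.16 with an adjusted p of 0.0048 over 3 pairs. Scaling the arrays to their medians in place of the 75th percentile gave a rise of 0.82 and an adjusted p of 0.069, so that the call was lost, without the marked spots. It was lost there too with no filter on dim probes (adjusted p = 0.14) and with the methods' t-test after adjustment (adjusted p = 0.21). On 3 pairs, with all spots, the methods' t-test kept the Cldn3 call after adjustment (adjusted p = 0.046). The limma call with all spots was lost without adult replicate 3 (0.87, adjusted p = 0.052).

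Cldn5 (NM_013805), known above all as the claudin of endothelial tight junctions and also present in the testis, had signals of -1.30, -1.27 and -2.18 in neonatal replicates 1 to 3. Adult replicates 1 to 3 gave -3.52, -4.20 and -3.64. The ages were apart by 1.33 at the nearest arrays, and the low neonatal array was again replicate 3. Pair differences were -2.21, -2.93 and -1.46. With all spots Cldn5 changed by -2.20 ± 0.31 (SE), a 4.60-fold fall (95% interval 2.55 to 8.30) with a limma adjusted p of 0.0031 over 3 pairs. The change was -1.61 with normexp, and the Cldn5 call was lost with the methods' t-test once its p was adjusted (adjusted p = 0.053). Cldn11 and Cldn5 therefore fell and Cldn3 rose within the claudins of the barrier.

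Occludin and F11r are the other tight junction membrane proteins measured. Ocln (NM_008756), which encodes occludin, a tetraspan protein of the junction strands, had signals of -0.62, -0.61 and -1.57 in neonatal replicates 1 to 3. Its adult signals were -3.16, -3.14 and -3.61. Every adult array lay below every neonatal array, and the nearest 2 were 1.56 apart. The pairs differed by -2.54, -2.53 and -2.03. With all spots the change was -2.37 ± 0.16 (SE), a 5.16-fold fall (95% interval 3.83 to 6.96) with a limma adjusted p of 0.00031 over 3 pairs. With normexp and all spots the change of Ocln was -1.79.

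F11r (NM_172647), which encodes JAM-A, an immunoglobulin-like adhesion molecule of tight junctions, had signals of 1.29, 1.44 and 1.78 in neonatal replicates 1 to 3. Adult replicates 1 to 3 had signals of -1.01, -1.04 and -0.35. Here replicate 3 was the high array at both ages, and the ages were apart by 1.63. Pair differences of -2.30, -2.48 and -2.13 were close to each other. Without the marked spot of neonatal replicate 3, F11r fell by 2.39 ± 0.15 (SE), or 5.25-fold with a 95% interval from 3.81 to 7.23, with a limma adjusted p of 0.0014 over 2 pairs. With all spots the fall was 4.93-fold, short of the 5-fold rule, which F11r passed there with quantile normalization (-2.36) and with median scaling (-2.56).

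Tjp1 (NM_009386) encodes ZO-1, the scaffold that ties claudins, occludin and JAM-A to actin. Its signals were 3.96, 3.86 and 3.80 in neonatal replicates 1 to 3. They were 3.11, 3.38 and 3.41 in adult replicates 1 to 3. The ages were apart by 0.39, the narrowest gap among the 7 genes whose ages did not overlap. Pair differences were -0.85, -0.49 and -0.39. Without marked spots Tjp1 fell by 0.67 ± 0.17 (SE), or 1.59-fold with a 95% interval from 1.09 to 2.32, with a limma adjusted p of 0.040 over 2 pairs. With all spots the adjusted p was 0.021 and the change -0.58, which lay 0.08 below the median change of all mRNA probes. With quantile normalization and without marked spots the change of Tjp1 was -1.30. Without a floor on dim signals the change of -0.67 had an adjusted p of 0.056, and the call was lost, as it was with no filter (adjusted p = 0.14) and with the methods' t-test after adjustment (adjusted p = 0.22). With all spots it was lost without replicate 1 (-0.44, adjusted p = 0.085), without replicate 2 (-0.62, adjusted p = 0.066) and without neonatal replicate 1 (-0.53), neonatal replicate 2 (-0.58) or adult replicate 1 (-0.48).

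Gap junctions couple Sertoli cells to each other and to germ cells. Gja1 (NM_010288), which encodes connexin 43, the main Sertoli cell connexin, had signals of 5.20, 5.53 and 5.74 in neonatal replicates 1 to 3. Adult replicates 1 to 3 had 3.88, 4.05 and 4.21. All neonatal arrays were above all adult arrays, by at least 0.999. Pair differences were -1.32, -1.48 and -1.54. Without the marked spot of adult replicate 3, Gja1 fell by 1.40 ± 0.14 (SE), or 2.64-fold with a 95% interval from 1.93 to 3.62, and the limma adjusted p was 0.0043 over 2 pairs. The change was -1.45 with all spots and 3 pairs, and -2.14 with quantile normalization and without the marked spot.

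N-cadherin and β-catenin belong to the adherens junction. Cdh2 (NM_007664), which encodes N-cadherin, the adhesion receptor of the basal ectoplasmic specialization, had signals of -0.08, -0.43 and -1.39 in neonatal replicates 1 to 3. In adult replicates 1 to 3 the signals were -0.32, -1.10 and -2.25. The ages overlapped, and replicate 3 was the lowest array of each age. Pair differences were -0.24, -0.67 and -0.86. With all spots, 4 of the 6 of them marked, the change was -0.59 ± 0.17 (SE), a 1.51-fold fall with a 95% interval from 1.099 to 2.06 and a limma adjusted p of 0.030 over 3 pairs. This call was lost without the pairing (limma adjusted p = 0.39), with the slide as a block (adjusted p = 0.079) and with no filter on dim probes (adjusted p = 0.084). The call was also lost with the methods' t-test after adjustment (adjusted p = 0.11) and with normexp (-0.27, limma adjusted p = 0.12). It was lost too without replicate 2 (-0.55, adjusted p = 0.11), without replicate 3 (-0.45, adjusted p = 0.10) and without any single array, where the change ranged from -1.04 to -0.08. The change lay 0.09 below the median of all mRNA probes, and 0.13 above it after quantile normalization.

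Ctnnb1 (NM_007614) encodes β-catenin, which links cadherins to actin through α-catenin and also acts in Wnt signalling. Its signals were 5.72, 5.87 and 5.95 in neonatal replicates 1 to 3. They were 4.45, 4.47 and 4.57 in adult replicates 1 to 3. Arrays of one age lay within a narrow range (SD 0.12 in neonates and 0.07 in adults, n = 3), and the ages were apart by 1.15. Pair differences were -1.27, -1.40 and -1.38. Without marked spots Ctnnb1 fell by 1.34 ± 0.14 (SE), or 2.53-fold with a 95% interval from 1.85 to 3.44, with a limma adjusted p of 0.0046 over 2 pairs. With quantile normalization the change of Ctnnb1 was -2.07. Ctnnb1 and its partner Cdh2 hence had unlike changes on these arrays, and the difference between the 2 changes was not tested.

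**Figure D2:**
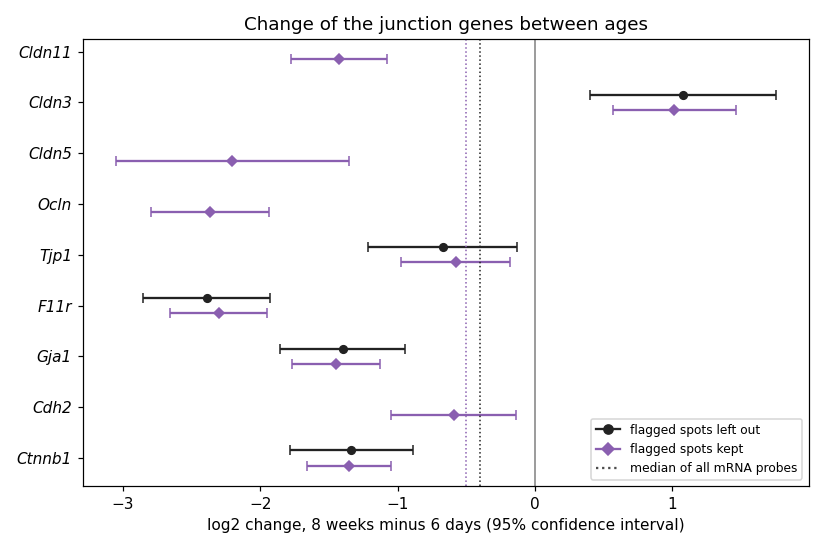
Log2 change of each junction gene between ages (8 weeks minus 6 days), with its 95% confidence interval from limma, with outlier-marked spots left out (circles, 5 genes) and kept (diamonds, 9 genes). Dotted lines are the medians of all mRNA probes tested, at -0.40 and -0.50, and Cldn3 alone lies to the right of 0.

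The arrays of replicate 3 of both ages shared a scan start time, and the other 4 arrays shared another. Arrays with the same scan start time were taken to be on one slide, here slide 2 and slide 1, and no label names the slide. Each age was on both slides, so the pair difference of replicate 3 is also the difference within slide 2. Marked spots made up 30.7% of the spots of neonatal replicate 3 and 25.4% of adult replicate 3, beside 6.11% to 10.7% on the arrays of slide 1. Cldn11 on slide 2 was lower than the mean of slide 1 by 1.96 in neonates and 2.19 in adults, more than its change between ages. Cdh2 on slide 2 was lower by 1.13 and 1.54, and Ocln by 0.96 and 0.46. Cldn3, F11r, Gja1 and Ctnnb1 were higher on slide 2 at both ages. The mean difference between ages on slide 1 was -1.35 for Cldn11, 1.08 for Cldn3, -2.57 for Cldn5 and -2.54 for Ocln. For the other genes it was -0.67 for Tjp1, -2.39 for F11r, -1.40 for Gja1, -0.45 for Cdh2 and -1.34 for Ctnnb1. All 9 genes thus had the same direction on both slides.

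The changes were next set against those of all other mRNA probes tested with all spots. A lower change than that of Ocln was found for 14.8% of the 19310 probes, than F11r for 15.8% and than Cldn5 for 17.3%. For Gja1, Cldn11 and Ctnnb1 the share was 30.7%, 31.1% and 32.5%. Cdh2 and Tjp1 were in the middle of all probes, at 48.2% and 48.5%, and Cldn3 was at 76.9%. Other scalings moved the median of all mRNA probes, from -0.40 without marked spots to -0.73 with quantile normalization, -0.71 with median scaling and 0.02 with normexp. With all spots, the direction of all 9 genes was kept under each of these 3 settings. Relative to the median and with all spots, Ocln changed by -1.87, F11r by -1.80, Cldn5 by -1.70, Gja1 by -0.94, Cldn11 by -0.92 and Ctnnb1 by -0.85, whereas Cldn3 changed by 1.52. Tjp1 lay 0.27 below the median without marked spots, 0.56 below it with quantile normalization and 0.69 below it with normexp, so its place near the median holds for some settings only.

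Because the makeup of the testis differs between the ages, markers of its cell types were measured on the same arrays, as summed signals in units of the array's 75th percentile. The most abundant gene of a list is that with the highest probe signal, which does not compare transcript levels between genes. The 14 probes of Sertoli cells, which build the barrier, summed to 110, 119 and 96.4 on the neonatal arrays (replicates 1 to 3) and to 28.2, 23.2 and 24.4 on the adult arrays. Of 9 tested, 8 fell, with a median change of -2.25. Among them were Inha (-1.86), which was the most abundant gene of the list, and Ctsl (-3.15). Shbg fell too, and was well above background on 1 of 3 adult arrays and at the floor on the others. Krt18 was not well above background on any adult array. Each of the 8 members with less signal in adults moved in the direction of these markers, and the part of Sertoli cell number in their change was not tested.

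Germ cells make up most of the adult tubule. The 10 spermatid probes summed to 0.75, 0.78 and 0.87 at 6 days and to 1230, 1452 and 1679 at 8 weeks, with 1 of 2 probes of Akap4 not well above background in neonates and all 6 tested probes higher, led by the most abundant, Prm2 (14.32), and Tnp2 (14.18). For spermatocytes the 9 probes summed to 27.8, 24.5 and 34.4 at 6 days and to 354, 369 and 453 at 8 weeks, and all 7 tested rose, among them Ccna1 (7.62) and the most abundant, Pgk2 (well above background on 1 of 3 neonatal arrays). The 12 spermatogonial probes summed to 146, 154 and 146 at 6 days and to 72.6, 79.1 and 64.9 at 8 weeks, and 6 of 7 tested fell, among them Sohlh1 (-3.26), Stra8 (-2.61) and the most abundant, Uchl1 (-2.28). With all spots 1 of 2 probes of Ddx4, the most abundant of this list in adults, rose by 2.18 (adjusted p = 0.00055). Gfra1 was not well above background at either age. Cldn3 was the single member that moved in the direction of the spermatid and spermatocyte markers, and their part in its rise was not tested.

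Cldn5 and F11r are also known in vessels. Endothelial markers (11 probes) summed to 10.47, 11.7 and 17.2 at 6 days and to 3.67, 3.50 and 4.60 at 8 weeks, and of 10 tested 9 fell, with 2 probes of Pecam1 (-3.27 and -3.25) and the most abundant, Cdh5 (-2.53), and Sox17 rose (0.67). With quantile normalization or median scaling no endothelial probe was called higher, whereas with normexp 7 of the 10 fell and 2 rose. Without the replicate block 7 of the 10 fell. Cldn5 and F11r moved in the direction of most of these markers, and the part of vessels in their change was not tested. Peritubular myoid markers (6 probes) summed to 21.9, 22.1 and 27.1 at 6 days and to 5.47, 4.56 and 6.73 at 8 weeks, with 3 of 5 tested lower, among them the most abundant, Myh11 (-2.31), and Tagln (-1.95), and with Cnn1 not well above background at either age. With all spots Actg2 of the myoid list was called higher (2.01, adjusted p = 0.010). Leydig cell markers (8 probes) summed to 32.0, 35.1 and 30.3 at 6 days and to 82.8, 69.3 and 63.9 at 8 weeks, and of 4 tested Star (1.34) and Cyp11a1 (1.16) rose and Hsd3b1 (-1.04) fell, while the most abundant, Insl3, changed by 3.49 with all spots. Macrophage markers (7 probes) summed to 9.73, 9.66 and 10.6 at 6 days and to 7.86, 7.91 and 9.52 at 8 weeks, with 3 of 5 tested lower, among them Lyz2 (-0.68) and Cx3cr1 (-0.66), and the most abundant, C1qa (-0.35), not called, and without the replicate block none of the 5 was called.

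Cldn3 is known from epithelia, so markers of other epithelial cells, such as those of the rete and epididymis, were listed too. Their 9 probes summed to 8.21, 2.42 and 10.4 at 6 days and to 3.13, 3.33 and 4.79 at 8 weeks, with Lcn5 and Cdh16 not well above background in adults. Of 7 tested, Epcam (1.16) and the most abundant, Krt8 (1.04), rose, and Krt19 (-4.26, well above background on 2 of 3 adult arrays) and Pax8 (-1.61) fell. The highest probe signal among them in neonates was that of Crisp1, with signals of 2.43, -4.34 and 2.51 by replicate. Adult replicates 1 to 3 had Crisp1 signals of -4.23, -4.37 and -5.30, so neonatal replicates 1 and 3 stood apart from the other arrays. Cldn3 had its lowest signal on neonatal replicate 2. Cldn3 thus moved with Epcam and Krt8 and against Krt19 and Pax8, and the part of such cells in its rise was not tested.

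To relate the members to Sertoli RNA on the same array, the change of each gene was taken relative to the mean log2 signal of the Sertoli probes that were well above background and unmarked on all arrays. These were Gata4, Sox8 and Ctsl, 3 probes whose mean fell by 2.36, 2.78 and 2.61 in pairs 1 to 3. Ctsl is also expressed in other cells, so the reference is not of Sertoli cells alone. Relative to them no member fell in all 3 pairs. Cldn3 was higher in adults by 3.15, 4.15 and 3.50 in pairs 1 to 3, and Tjp1 by 1.504, 2.29 and 2.22. Cdh2 was higher by 2.11, 2.11 and 1.75, and Cldn11 by 1.12, 1.31 and 1.04. Gja1 and Ctnnb1 had mean differences of 1.14 and 1.23 over the 3 pairs, 0.69 and 0.78 with quantile normalization and 0.49 and 0.62 with normexp. For Ocln the pairs gave -0.18, 0.25 and 0.58, for Cldn5 0.14, -0.15 and 1.15 and for F11r 0.06, 0.30 and 0.49. With normexp the mean for F11r was -0.24 in place of 0.28, a change of direction. With all spots the reference held 11 probes, and the mean was 0.97 for Cldn11, 3.41 for Cldn3, 0.19 for Cldn5 and 0.03 for Ocln. The changes of those 11 probes with all spots ran from -3.41 for Clu to -0.67 for Trf. The changes of all members but Cldn3, Tjp1 and Cdh2 lay within that range. Ratios to the reference therefore depend on the probes taken, show unequal change within an array and carry no test.

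The other claudins were read for comparison with Cldn11, Cldn3 and Cldn5. Of 22 claudin genes listed, 21 had a probe, and of 22 probes tested 6 fell, 5 rose and 11 were not called, with a median change of 0.13 (-0.12 with quantile normalization) beside -0.40 for all mRNA probes. With normexp 5 of these claudin probes fell and 11 rose, with a median of 0.38. Cldn1 (-6.19), Cldn4 (-3.42, well above background on 2 of 3 adult arrays) and Cldn15 (-2.51) fell, Cldn23 (1.99) and Cldn14 (well above background on 1 of 3 neonatal arrays and at the floor on the others) rose, and Cldn22, not well above background in neonates, was at least 2.43-fold higher in adults. Cldn11, Cldn3 and Cldn5 thus moved within a family that changed in both directions. Cldn4 had neonatal signals of -2.53, -4.12 and -2.26 in replicates 1 to 3, lowest in the replicate where Crisp1 was low.

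Around Ocln, F11r and Tjp1, other transmembrane and scaffold genes of tight junctions had 32 probes tested, of which 19 fell and 6 rose, with a median of -0.75. That median was -1.42 with all spots, -1.49 with quantile normalization, -1.37 with median scaling and -0.41 with normexp, where 16 fell and 10 rose. A probe of the adhesion molecule Cxadr (-4.58, beside -2.20 for its other probe) and 2 probes of the polarity gene Pard3 (-3.19 and -3.17) fell most. The probes that rose most were 3 of Pard6a, another polarity gene (2.83, 2.74 and 2.70). Adherens junction and ectoplasmic specialization genes, the group of Cdh2 and Ctnnb1, had 30 probes tested, of which 21 fell and 5 rose, with a median of -1.14 (-1.78 with quantile normalization). With normexp 18 of these adherens probes fell and 8 rose, and without the replicate block 17 fell and 5 rose. The laminin chain Lama3 (-3.08) and the integrin chain Itga6 (-2.92) fell and Lamc3, not well above background in adults, was at least 5.98-fold lower there, while Lamb3 (4.70) and 2 probes of the adhesion molecule Nectin3 rose, 1 of them by 3.20 and the other from neonatal signals at or near the floor (well above background on 1 of 3 neonatal arrays), so that its size was not measured. The highest change of that list was 3.63 with normexp. The gap junction list, to which Gja1 is akin, had 5 probes lower and 6 higher of 16 tested, with a median of 0.28 (-0.09 with quantile normalization, and 0.57 with normexp, where 4 fell and 10 rose), with falls of Gja5 (-2.76), Gja4 (-1.84) and Gjc1 (-1.37).

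Desmosome genes had 11 probes tested, 5 lower and 4 higher, with a median of -0.34 (0.03 with normexp, -0.59 with quantile normalization and with median scaling). Dsg2 (-2.44), Pkp2 (-2.05) and Dsc2 (well above background on 1 of 3 adult arrays and at the floor on the others) fell, none by more than 2.01 with normexp, and Dsc3 (1.43) rose, and Dsg1a and Dsg1b, not well above background in neonates, were at least 42.7-fold and 21.8-fold higher in adults. Among regulators of the barrier, 16 of 24 probes tested fell and 3 rose, with a median of -1.35, and Fshr, Gata4 and Wt1 of this list are also in the Sertoli list. The hormone receptor Fshr (-3.05) and the kinase Src (-2.77) fell and Cask, not well above background in adults, was at least 15.0-fold lower there, while Il1a (2.31, well above background on 2 of 3 neonatal arrays), Mtor (1.24) and Mmp9 (0.74) rose.

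**Figure D3:**
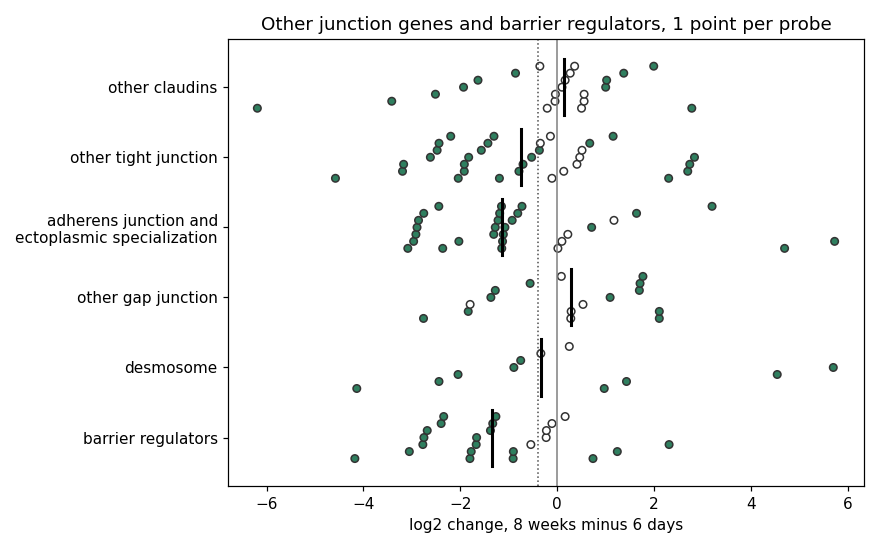
Log2 change (8 weeks minus 6 days) of probes for other junction genes and for barrier regulators, 1 point per probe tested with marked spots left out, filled where the limma adjusted p was at most 0.05. Thick bars are list medians, from -1.35 for barrier regulators to 0.28 for other gap junction genes, and the dotted line is the median of all mRNA probes, -0.40.

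Genes with a pattern most like that of F11r, the largest fall without marked spots, and of Cldn3, the rise, were looked for among 4381 mRNA probes unmarked and well above background on all arrays. The measure was the root mean square distance between centred log2 values. Nearest to F11r over its 5 unmarked arrays were Epn3 (distance 0.03), Prkar2b (0.04) and Ercc6l (0.05), which fell by 2.25, 2.51 and 2.55. Nearest to Cldn3 over its 4 unmarked arrays were Ceacam2 (0.04), Serpinb2 (0.07) and Epcam (0.08), which rose by 1.07, 1.01 and 1.16. So few arrays make such matches easy to find.

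Promoter sequences are shown for the 3 claudins, because they are one family in which 2 members fell and 1 rose. They run from 250 bases before to 50 after the gene start in RefSeq on GRCm38.p6, and are written 5′ to 3′ on the strand of the gene. Such windows were used for 8 of the 9 members, and none for Cdh2, since windows on its chromosome (18) were left out for the members. Capitals mark matches on either strand to the GC box GGGCGG or the CCAAT box CCAAT, 2 of the 5 motifs searched. The other 3 were the TATA box TATAAA, the cAMP response element TGACGTCA and the androgen response element. The windows lie at chr3:31149670-31149969 (plus strand) for Cldn11, chr5:134985964-134986263 (plus strand) for Cldn3 and chr16:18776597-18776896 (plus strand) for Cldn5.
Cldn11: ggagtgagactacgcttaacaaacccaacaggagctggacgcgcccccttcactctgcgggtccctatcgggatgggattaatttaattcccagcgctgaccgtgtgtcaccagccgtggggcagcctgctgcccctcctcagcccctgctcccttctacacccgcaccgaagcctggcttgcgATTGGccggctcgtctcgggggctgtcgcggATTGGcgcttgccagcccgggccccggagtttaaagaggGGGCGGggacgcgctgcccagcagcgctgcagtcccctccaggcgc
Cldn3: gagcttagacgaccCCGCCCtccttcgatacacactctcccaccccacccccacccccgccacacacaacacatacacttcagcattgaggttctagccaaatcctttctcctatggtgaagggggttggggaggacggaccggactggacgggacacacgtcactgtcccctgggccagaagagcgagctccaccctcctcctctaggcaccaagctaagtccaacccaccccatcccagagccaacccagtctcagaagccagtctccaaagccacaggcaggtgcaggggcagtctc
Cldn5: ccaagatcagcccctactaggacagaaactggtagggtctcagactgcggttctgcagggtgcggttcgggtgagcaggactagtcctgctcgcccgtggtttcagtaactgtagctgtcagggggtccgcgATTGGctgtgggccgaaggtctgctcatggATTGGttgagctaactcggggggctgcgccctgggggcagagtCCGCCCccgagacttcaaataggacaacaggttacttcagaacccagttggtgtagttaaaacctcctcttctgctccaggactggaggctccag
Each of the 3 windows held 1 match to the GC box, and those of Cldn11 and Cldn5 held 2 matches to the CCAAT box, where that of Cldn3 held 0. Of all 32841 promoter windows of this length, 35.7% held the GC box letters and 37.4% the CCAAT box letters. The TATA box letters were in 13.6%, the cAMP element in 1.79% and the androgen element in 3 windows, and none of the 3 claudin windows held them. Of the 8 members with a window, 7 held the GC box and Gja1 did not, and 5 held the CCAAT box in at least 1 window, whereas Cldn3, Tjp1 and Gja1 did not. A match describes the letters of the window and says nothing of binding.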

How the data were processed

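Total RNA of whole testis was measured on 6 Agilent arrays. The authors primed cDNA with oligo dT, labelled it with Cy3 and extracted features with Agilent software of version 10.5.1.1. The scanner files deposited by the authors hold spot intensity, background-subtracted and detrended within the array, and median spot and background intensity, with no scaling across arrays. Other columns hold flags of the scanner software, per the file headers. The authors also deposited log2 values. On every array 100% of these lay within 0.001 of the log2 of the signal (or of 5 where it was lower) less one constant, although the methods name quantile normalization.

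Spots of a probe were averaged and divided by the array's 75th percentile over non-control probes, set to at least -7.22 on the log2 scale, and log2-transformed. Accessions were named through RefSeq (GRCm38.p6), which matched 21905 of 22464 mRNA probes. The array design used another build, so the only positions given are those of RefSeq promoter windows. A probe entered the test if it was well above background on 1 array or more and had at least 2 complete pairs, with outlier-marked spots left out. limma 3.58.1 (R 4.3.3) was run two-sided, blocked by replicate number, with Benjamini-Hochberg adjustment over all 24517 lncRNA and mRNA probes tested, or 29888 with marked spots kept. The fit was tested on simulated data under 3 noise models, 2 of them added after earlier outcomes were seen, and under 1 of them false calls exceeded the share that the threshold allows. Tables and figures used Python 3.11.15, pandas 2.3.3, numpy 2.4.6, scipy 1.17.1 and matplotlib 3.10.9. The lowest signal well above background was 6.09 to 24.0 over the arrays, and no spot was saturated.

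The study's methods used a paired test. Deviations from the age mean correlated between arrays of the same number with r of 0.401, 0.339 and 0.681. Of these the first 2 are within slide 1, where arrays of unlike number gave 0.432 and 0.374 and so were no less alike, and arrays on different slides gave -0.586 to -0.481. For a probe not well above background at one age, a fold is a bound, the mean of the brighter age against the higher of the dim signal and the array's lowest signal well above background.

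Alternatives were quantile normalization, median scaling, no floor, normexp (offset 50, on the median spot and background intensities), the authors' log2 values, marked spots kept, stricter or no filtering of dim probes, the slide or nothing as the block, an intensity trend, the methods' t-test and leaving out replicates. Members and gene lists were chosen with earlier results of these data known. Genes named are all members, the 3 largest called falls and rises of each junction or regulator list, the most abundant gene and 2 largest called changes each way of each marker list, and the 3 mRNA probes nearest to the members with the largest fall and rise. Crisp1, Ddx4 and Actg2 were added after their values were seen. Some genes that this rule names are not reported here.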

Additional observations from a re-analysis of the deposited data

How the results depend on the processing

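Of the 5 genes tested without marked spots, 5 were called, beside 11414 of 15121 mRNA probes. None of the settings tried reversed a member's change between ages. The member count was 3 with no filter on dim probes, 9 of 9 with marked spots kept and 9 of 9 with the authors' log2 values. In the same order, 9264 of 18275, 15308 of 19310 and 14955 of 18506 mRNA probes were called. The methods' t-test, on 2 pairs, called 3 before and 0 after Benjamini-Hochberg adjustment, Cldn3 and Tjp1 being lost with it as with no filter, with adjusted p from 0.055 for F11r to 0.22 for Tjp1. It called 5969 mRNA probes in place of 11414. Leaving out replicates gave 1 to 5 member calls and 4824 to 11144 mRNA calls. Without replicate 1 or 2 no member kept enough pairs, and without a single array of those replicates 1 member could be tested, so the lower counts come from fewer genes tested. F11r, the 1 gene past the 5-fold rule, missed it without the replicate block (count 0) and by the adjusted t-test (count 0), and the count was 3 with the authors' values and 0 to 1 without replicates. Without the replicate block 5 members were called, and the change without marked spots was -2.16 for F11r and -1.53 for Gja1, and all 5 calls were kept, whereas with marked spots Cldn11 and Cdh2 lost theirs.

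Combinations with marked spots kept were chosen after seeing the data. Beside 11953 to 15700 mRNA probes called (of 19255 and 19310 tested), they called 6 to 9 of 9 members. The count past 5-fold was 3 with quantile normalization and with median scaling, 0 with normexp and 0 to 3 without replicates (0 without replicate 1, 0 without replicate 2, 3 without replicate 3, 2 without neonatal replicate 3 and 2 without adult replicate 1). Cldn11, called in 13 of 20 settings and also with the slide as the block, ranged from -2.08 to -0.70 over arrays left out, the latter without adult replicate 3. Cdh2 ranged from -1.04 to -0.08, the latter also without adult replicate 3, and was called in 7 of 20 settings. Tjp1 was called in 13 of 20, Cldn3 and Cldn5 in 19 of 20 (Cldn5 not by the methods' t-test after adjustment, adjusted p = 0.053), and Ocln, F11r, Gja1 and Ctnnb1 in 20 of 20. Relative to the Sertoli reference, 1 member (F11r) was lower in every pair with normexp in place of 0. With normexp 48.8% of called mRNA probes were lower in adults in place of 60.6%. The cause of these differences was not tested. All members were well above background on all arrays, yet Cdh2, Cldn5 and Ocln moved under the normexp setting. That setting changed the background correction, the offset and the intensities used together, and their parts were not tested apart. The 3 replicates and the marked spots limit every value.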
